A study of Homo sapiens with 10 samples.

Results

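SR proteins, heterogeneous nuclear ribonucleoproteins (hnRNPs) and the kinases that act on SR proteins were examined in RNA-sequencing of U2OS cells after knockdown of the DEAD-box helicase DDX41. The members were the protein-coding genes with a symbol made of SRSF and a number, those with a symbol starting with HNRNP, and TRA2A, TRA2B, SRRM1, SRRM2, CLK1, CLK2, CLK3, CLK4, SRPK1, SRPK2 and PTBP1. They came to 50 of the 63254 gene identifiers in the count tables, without the copies in the pseudoautosomal region of the Y chromosome. The expression filter kept 42 of the 50 members among 16143 genes tested.

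U2OS is a human osteosarcoma cell line, grown here in DMEM with 10% FBS. One group was transfected with control siRNA and the other with pooled siRNAs against DDX41, and polyadenylated RNA was collected 48 h later from 5 libraries per group. The libraries held 23393764 to 24598860 counts (median 23863834) in control knockdown and 21807041 to 24896398 counts (median 23714261) in DDX41 knockdown. The data cover a single cell line and a single siRNA pool, and the labels do not say whether the libraries came from separate cultures, so the p-values measure the spread between these libraries, which may be technical. Levels are given as CPM, which are counts brought to a common library size with TMM factors, and library values are always listed from replicate 1 to replicate 5. Positions refer to GRCh38 (hg38).

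DDX41 (ENSG00000183258.11, chr5:177511577-177516961, minus strand) was measured at 49.1, 49.4, 47.3, 47.2 and 50.5 CPM in the control libraries and at 11.5, 13.7, 12.4, 11.2 and 12.3 CPM in the DDX41 knockdown libraries. Every knockdown library lay below every control library. The log2 fold change was -1.99 ± 0.049 (SE; edgeR quasi-likelihood test, Benjamini-Hochberg adjusted p = 4.47e-24, n = 5 per group). Markers of the cell line were checked as well. Among 9 mesenchymal and osteoblast markers, VIM, SPARC and COL1A1 were abundant, at 2465, 2807 and 1875 CPM in control cells and 2321, 3181 and 1766 CPM after DDX41 knockdown. SPARC rose (log2 fold change 0.18 ± 0.024 SE, edgeR adjusted p = 1.42e-07), VIM fell slightly (log2 fold change -0.09 ± 0.024 SE, edgeR adjusted p = 0.00174) and COL1A1 did not pass. RUNX2 was at 32.4 CPM and ALPL at 5.01 CPM in control cells, and both fell, to 24.6 and 3.08 CPM after DDX41 knockdown (log2 fold changes -0.40 ± 0.043 and -0.70 ± 0.118 SE, edgeR adjusted p = 2.24e-09 and 5.51e-06). The osteoblast genes SP7, IBSP and BGLAP were near 0, with 4, 1 and 21 counts over all libraries, and COL1A2 had 91 counts. Of 5 markers of other cell types, PTPRC, CDH1 and PECAM1 were near 0 (0.333 and 0.874 CPM in control cells for PTPRC and CDH1, 43 counts over all libraries for PECAM1), and EPCAM was at 7.99 and 8.31 CPM in the control and knockdown groups. CD34 was at 30.4 CPM in control and 4.66 CPM in DDX41 knockdown cells (log2 fold change -2.71 ± 0.080 SE, edgeR adjusted p = 5.27e-20), and its part in the results on splicing regulators was not tested. ATRX, whose protein many lines of this tumour type lack, was at 317 CPM in control and 284 CPM in knockdown cells and fell without overlap (log2 fold change -0.16 ± 0.028 SE, edgeR adjusted p = 9.58e-06), and CDKN2A had 6 counts in all.

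SR proteins bind exonic enhancers through RNA recognition motifs and recruit the spliceosome through domains rich in arginine and serine, which CLK and SRPK kinases phosphorylate. Proteins of the hnRNP family coat nascent transcripts and often oppose SR proteins at alternative exons. Many genes of both families limit their own output through poison exons, which carry an early stop codon and send the transcript to nonsense-mediated decay (NMD), and several of these elements are among the most conserved sequences in the genome.

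GENCODE release 44 lists internal exons of this kind, found in NMD transcripts and overlapping no exon of a protein-coding transcript of the gene, for 19 of the 42 tested members, 37 exons in all. In 24 of these exons, in 17 members, the reading frame enters from upstream and meets the annotated stop codon within the exon. The coding stretch of 7 such exons, read 5′ to 3′ on the strand of the gene from hg38, is printed because such exons are the means by which these genes are best known to limit themselves. Capitals mark the stop codon. They lie at chr6:36599821-36599854 (SRSF3, plus strand), chr1:29166009-29166064 (SRSF4, minus), chr20:43459153-43459304 (SRSF6, plus), chr2:38749152-38749173 (SRSF7, minus), chr3:185931772-185931852 (TRA2B, minus), chr2:38577956-38578002 (HNRNPLL, minus) and chr1:244848809-244848856 (HNRNPU, minus).
SRSF3: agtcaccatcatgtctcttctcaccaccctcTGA
SRSF4: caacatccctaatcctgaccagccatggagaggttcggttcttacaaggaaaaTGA
SRSF6: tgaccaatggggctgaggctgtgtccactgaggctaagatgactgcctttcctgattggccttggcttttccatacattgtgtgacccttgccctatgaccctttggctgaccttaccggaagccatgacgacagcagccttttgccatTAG
SRSF7: ggcagaaaatttgagacggTGA
TRA2B: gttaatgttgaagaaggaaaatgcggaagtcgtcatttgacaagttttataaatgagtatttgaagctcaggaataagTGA
HNRNPLL: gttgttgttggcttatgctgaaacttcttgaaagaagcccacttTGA
HNRNPU: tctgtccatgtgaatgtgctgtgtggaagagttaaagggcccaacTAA
The distance from the first base of the exon to the end of the stop codon was 152 bases in SRSF6, 81 in TRA2B and 22 in SRSF7. Of the 19 members with such an exon, 6 were downregulated, 2 were upregulated and 11 did not pass the test, beside 32.1% of all genes tested that were downregulated and 30.3% that were upregulated. The counts are sums over all transcripts of a gene, so isoforms with and without these exons cannot be told apart.

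In DDX41 knockdown cells, 22 of the 42 tested members were downregulated (52.4%) and 5 were upregulated (11.9%) at an edgeR adjusted p-value under 0.01. Among all 16143 genes tested, 32.1% were downregulated and 30.3% were upregulated, 62.4% in either direction. The median log2 fold change was -0.11 over the tested members and -0.0014 over all genes tested. Most members were abundant, and 31 of the 42 had a mean of at least 100 CPM. Of these 31 members, 14 fell (45.2%) and 5 rose (16.1%), and of the 2480 genes at this level 32.6% fell and 44.2% rose. The groups did not overlap, with every knockdown library lower, for 21 of the tested members (29.3% of all genes tested), and did not overlap with every knockdown library higher for 5 members (26.7% of all genes tested). The changes were small. Only HNRNPA1 and HNRNPA1L3 fell with a log2 fold change under -0.5 (15.7% of all genes tested did). With a log2 fold change over 0.5, 0 members rose (9.81% of all genes tested did), and 0 of the 42 tested members had such a value whatever their p, with edgeR or DESeq2.

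**Figure D1:**
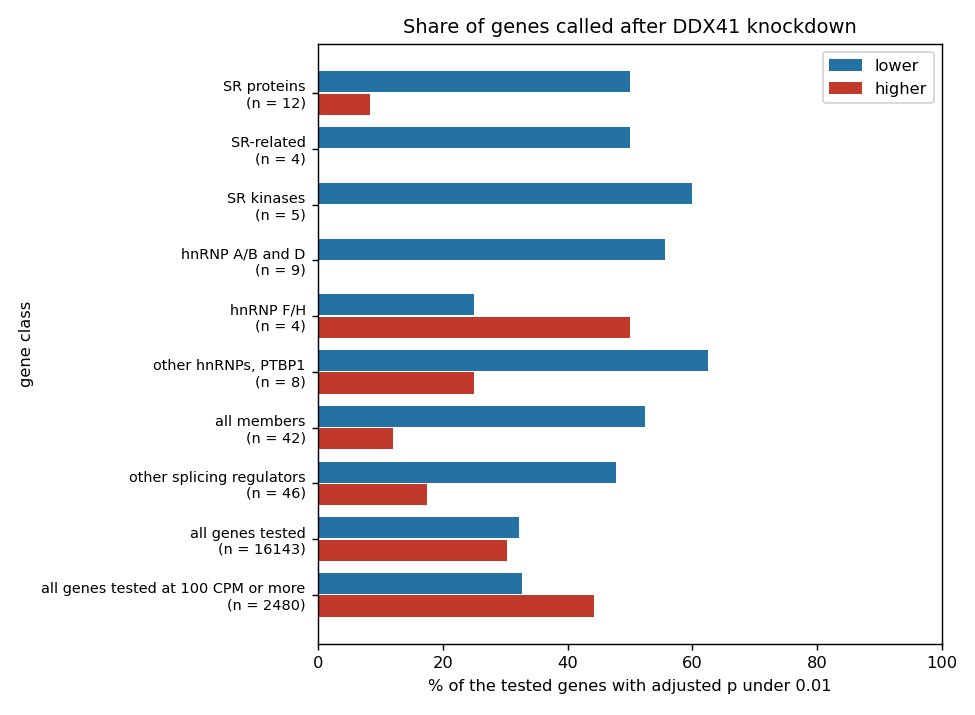
Share of tested genes that were downregulated (blue) or upregulated (red) in DDX41 knockdown cells with an adjusted p-value under 0.01, in percent, for each class of members, all members, other splicing regulators and all genes tested, with the number of genes in brackets. Downregulated genes made up 52.4% of the tested members and 32.1% of all genes tested.

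The summed level of the 42 members was 12997, 12704, 13114, 13038 and 12911 CPM in the control libraries and 12245, 12168, 12380.0, 12436 and 12120.0 CPM in the DDX41 knockdown libraries. The knockdown sums all lay below the control sums, and their mean was 5.27% lower. The 9 members of hnRNP A/B and D type summed to 4050 ± 77.0 CPM in control and 3651 ± 71.9 CPM in knockdown cells (SD, n = 5 per group), 9.85% lower. HNRNPA1 carried most of this, and the other 8 summed to 3174 ± 47.3 CPM and 3051 ± 68.7 CPM (SD, n = 5 per group), 3.88% lower with overlapping groups (genes left out of sums in this paragraph were chosen after seeing the data). The SR protein sum went from 2463 ± 26.5 CPM to 2281 ± 37.0 CPM, 7.40% lower, and the kinase sum from 316 ± 9.79 CPM to 288 ± 3.46 CPM, 9.04% lower. In the sums of these whole classes and of the SR-related class, which was 8.95% lower, the groups did not overlap. The sum of the F/H type was 1352 ± 25.6 CPM in control and 1376 ± 24.1 CPM in knockdown cells, and the sum of the other hnRNPs with PTBP1 was 3695 ± 17.7 CPM and 3694 ± 44 CPM. In both of these classes members that rose and members that fell stood side by side and the groups overlapped. Without HNRNPF the first of these sums was 10.1% lower in knockdown cells, and without HNRNPU the second was 6.79% lower. Sums were described and not tested.

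**Figure D2:**
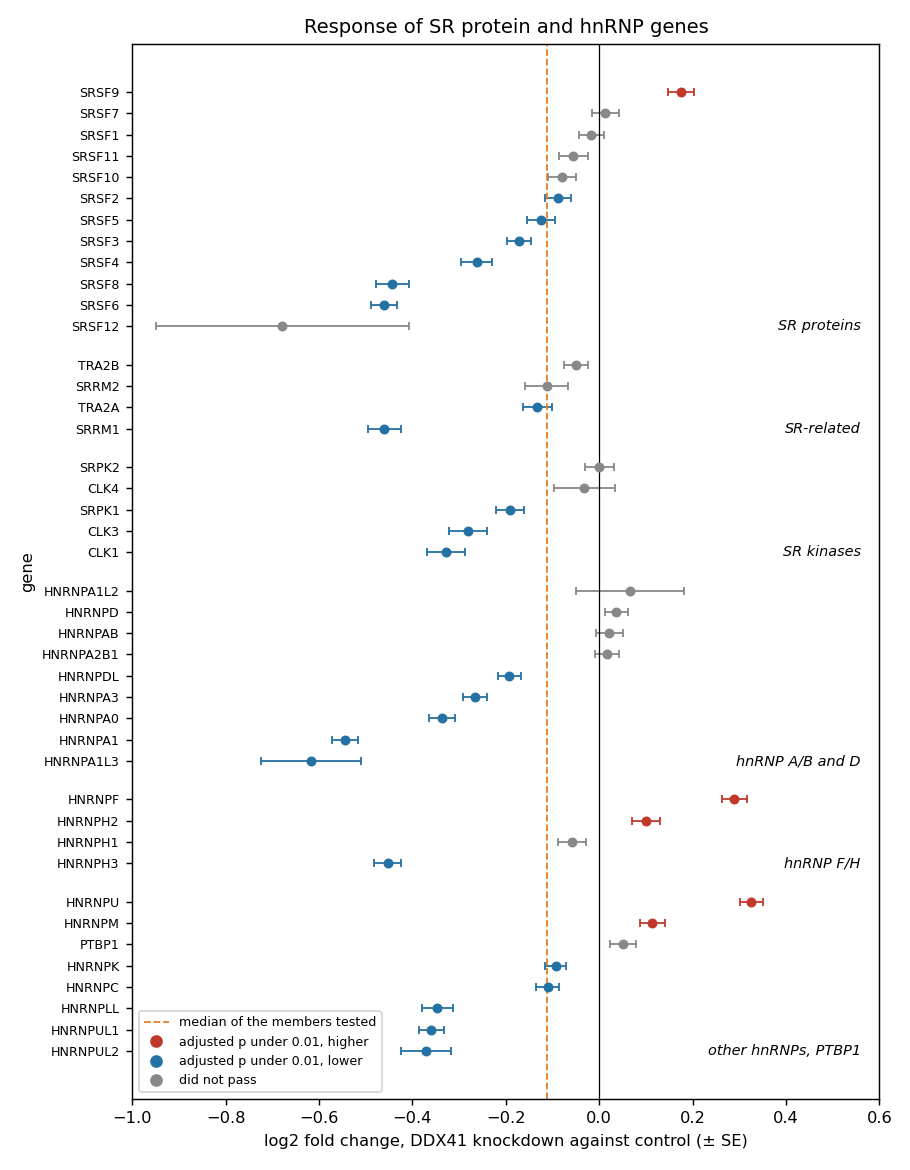
Log2 fold change of each tested member between DDX41 knockdown and control knockdown, grouped by class, with bars for the standard error (n = 5 libraries per group), red for upregulated, blue for downregulated and grey for genes that did not pass. The dashed line is the median of the tested members, -0.11, and the values run from -0.68 for SRSF12 to 0.33 for HNRNPU.

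Of 12 SR proteins, 6 fell, 1 rose and 5 did not pass the test, beside 32.1% of all genes tested that fell and 30.3% that rose. Among those that passed, the largest change was that of SRSF6 (ENSG00000124193.14, chr20:43457893-43466046, plus strand), which was at 229.5, 227, 228, 225 and 234 CPM in control and 159.8, 175, 166, 166 and 163 CPM in DDX41 knockdown libraries. The groups were well apart, with 160 to 175 CPM in knockdown libraries. Its log2 fold change was -0.46 ± 0.028 (SE; edgeR quasi-likelihood test, Benjamini-Hochberg adjusted p = 5.61e-15). SRSF8 (ENSG00000263465.3, chr11:95066919-95071225, plus strand), an intronless gene derived from a processed copy of SRSF2, was at 61.4, 60.4, 64.7, 60.5 and 64.2 CPM in control and 44.9, 45.9, 45.6, 48.0 and 44.4 CPM in knockdown libraries. Reads shared with SRSF2 make its level uncertain. SRSF8 fell by 26.4% without overlap (log2 fold change -0.44 ± 0.035 SE, edgeR adjusted p = 3.5e-12). SRSF4, a close relative of SRSF6 with a long arginine and serine rich domain, was at 84.9, 80.5, 81.8, 85.7 and 83.0 CPM and then at 66.2, 68.4, 66.8, 71.3 and 73.8 CPM. No knockdown library reached the control libraries in SRSF4, and its log2 fold change was -0.26 ± 0.034 (SE, edgeR adjusted p = 6.9e-08). SRSF3, the smallest SR protein and an adaptor of mRNA export, went from 455, 450.2, 444, 459 and 440.3 CPM to 398, 388, 399, 414 and 397 CPM, again without overlap (log2 fold change -0.17 ± 0.025 SE, edgeR adjusted p = 6.3e-07). SRSF5 was at 240.3, 231, 253, 237 and 245 CPM in control and 219.6, 238, 214, 219 and 216 CPM in knockdown libraries. Knockdown replicate 2 of SRSF5 reached into the control range, and the gene fell slightly (log2 fold change -0.12 ± 0.031 SE, edgeR adjusted p = 0.00069).

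SRSF2, a nuclear speckle protein, was at 348, 343, 327, 324 and 329 CPM in control and 314, 314, 326, 319 and 299 CPM in knockdown libraries. The groups overlapped, since knockdown replicate 3 lay above control replicate 4, and the log2 fold change was -0.09 ± 0.028 (SE, edgeR adjusted p = 0.00651). This call was lost with DESeq2's Wald test (adjusted p = 0.0219), with DESeq2's size factors in edgeR (adjusted p = 0.013), without the filter on low counts (edgeR adjusted p = 0.0108) and in 5 of 10 edgeR fits that left out a library, with adjusted p = 0.0281 and 0.0178 without control replicates 1 and 2, and 0.0165, 0.0134 and 0.0368 without knockdown replicates 1, 2 and 5. Over all these alternatives its edgeR and DESeq2 adjusted p ranged from 0.00205 to 0.0368. Exons of SRSF2 overlap those of MFSD11 on the opposite strand over 27.7% of their length. SRSF9 (ENSG00000111786.8, chr12:120461672-120495946, minus strand) was the SR protein that rose. Its level was 172, 163, 159, 167 and 163 CPM in control and 186, 181, 185, 191 and 187 CPM in knockdown libraries, with no overlap (log2 fold change 0.17 ± 0.028 SE, edgeR adjusted p = 2.14e-06). Exons of SRSF9 overlap those of GATC on the opposite strand over 43.6% of their length, and GATC had 20.3% as many counts as SRSF9. On the same strand, the long noncoding RNA gene NRAV overlaps 3.1% of the exon bases of SRSF9 and had 10.9% as many counts.

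The SR proteins that did not pass were SRSF1, SRSF7, SRSF10, SRSF11 and SRSF12. SRSF1, the first SR protein described, was at 323, 318, 313, 314 and 311 CPM in control and 317, 307, 317, 321 and 298 CPM in knockdown libraries, and the groups overlapped (log2 fold change -0.02 ± 0.026 SE). SRSF7, like SRSF3 an export adaptor, was at 216, 212, 202, 201 and 198 CPM and at 211, 208, 205, 212 and 202 CPM, with a log2 fold change of 0.01 ± 0.029 (SE). SRSF10, which represses splicing when dephosphorylated, had a log2 fold change of -0.08 ± 0.030 (SE, edgeR adjusted p = 0.0187), and it passed with library totals as the scale (edgeR adjusted p = 0.00845) and without control replicate 2 (edgeR adjusted p = 0.00636), within a range of 0.00636 to 0.0851 over its alternatives. SRSF11 had a log2 fold change of -0.06 ± 0.031 (SE). SRSF12 was barely expressed, at 0.608 CPM in control and 0.38 CPM in knockdown cells, and its log2 fold change of -0.68 ± 0.271 (SE, edgeR adjusted p = 0.0272) rested on 7 to 20 counts per library.

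**Figure D3:**
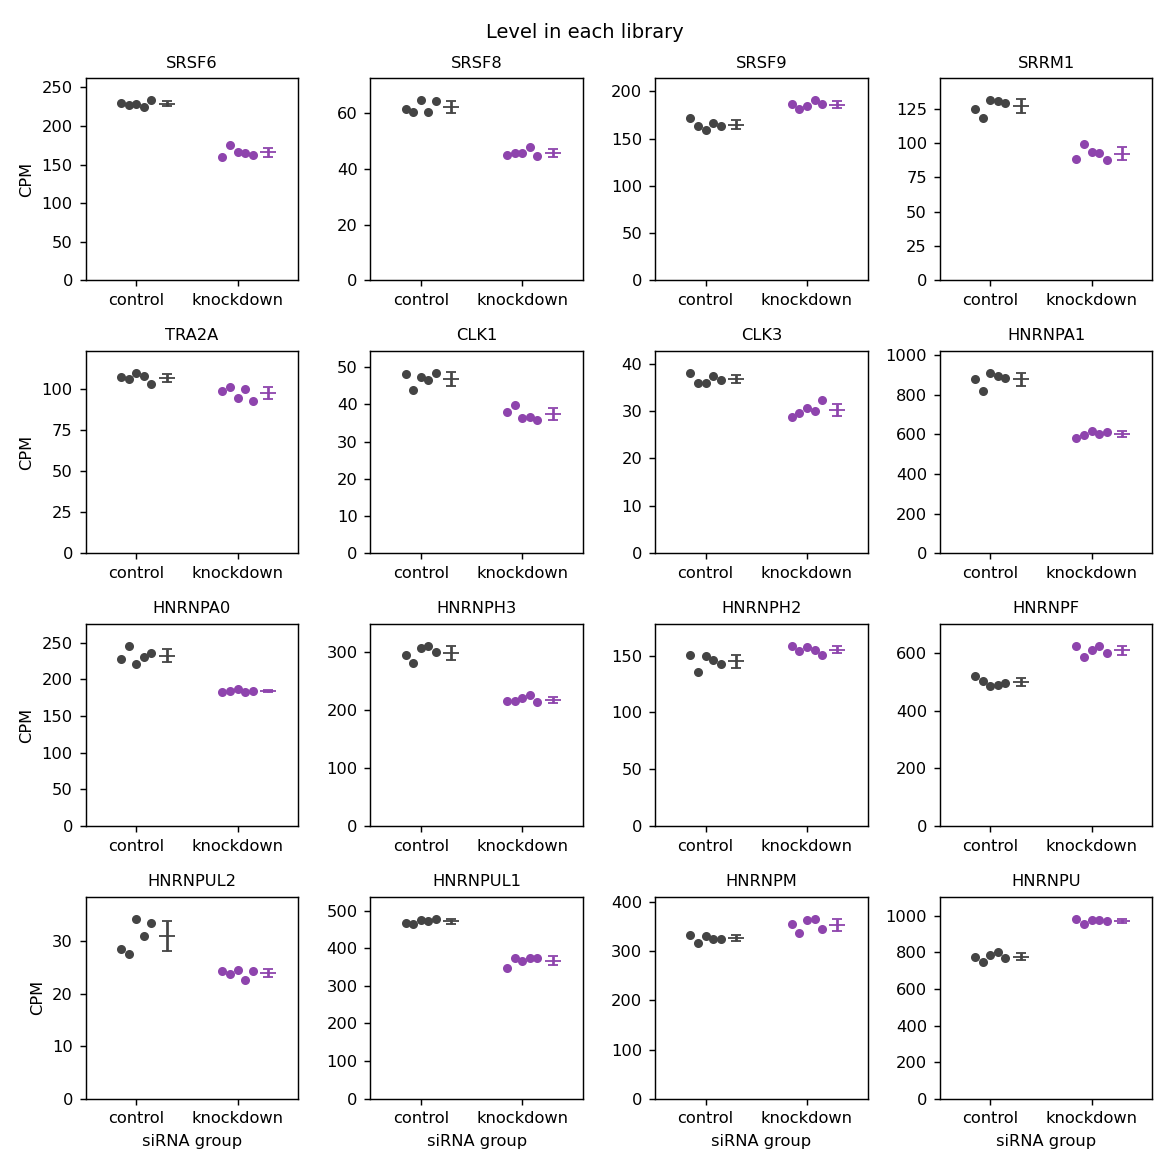
Level in CPM of 16 members in each control knockdown (grey) and DDX41 knockdown (purple) library, one point per library, with bars for the mean and SD (n = 5 libraries per group) and vertical axes from 0. In each of these members the knockdown libraries lie apart from the control libraries, on the higher side for SRSF9, HNRNPH2, HNRNPF, HNRNPM and HNRNPU and on the lower side for the others.

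Of 4 SR-related proteins, 2 fell and 2 did not pass (32.1% of all genes tested fell and 30.3% rose). SRRM1 (ENSG00000133226.16, chr1:24631716-24673281, plus strand), a coactivator of exonic enhancers, was at 125, 118, 131, 131 and 129 CPM in control and 88.2, 99.4, 93.4, 92.4 and 88.0 CPM in DDX41 knockdown libraries. The lowest control library, replicate 2, still lay above all knockdown libraries. SRRM1 fell by 27.3% (log2 fold change -0.46 ± 0.035 SE, edgeR adjusted p = 1.16e-12). TRA2A, which binds GAA-rich enhancers as does TRA2B, was at 107, 106, 109.5, 108 and 103 CPM and then at 98.4, 101.1, 94.3, 99.7 and 92.4 CPM, a small change without overlap (log2 fold change -0.13 ± 0.031 SE, edgeR adjusted p = 0.000384). TRA2B was at 274, 273, 277, 281 and 273 CPM and at 269.9, 255, 272, 268 and 265 CPM. It did not pass the test (log2 fold change -0.05 ± 0.026 SE, edgeR adjusted p = 0.081), although its groups did not overlap. SRRM2, the scaffold protein of nuclear speckles, was at 524, 551, 628, 579 and 556 CPM and at 512, 561, 527, 487 and 537 CPM, with overlapping groups (log2 fold change -0.11 ± 0.046 SE, edgeR adjusted p = 0.0393). SRRM2 passed only without the filter on low counts (edgeR adjusted p = 0.000343) and without control replicate 1 (edgeR adjusted p = 0.00523), and exons of ELOB lie opposite 3.1% of its exon bases.

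Of the 5 kinases tested, 3 fell and 0 rose with edgeR, also 0 at an unadjusted p under 0.05 or with DESeq2. Among all genes tested with edgeR, 32.1% fell and 30.3% rose. CLK1 (ENSG00000013441.15, chr2:200853009-200864691, minus strand) was at 48.3, 43.9, 47.2, 46.5 and 48.4 CPM in control and 38.05, 39.9, 36.3, 36.7 and 35.8 CPM in DDX41 knockdown libraries. The groups did not overlap, and CLK1, a nuclear kinase that releases SR proteins from speckles, fell by 20.4% (log2 fold change -0.33 ± 0.040 SE, edgeR adjusted p = 2.11e-08). CLK3 was at 38.02, 36.0, 35.9, 37.3 and 36.6 CPM and at 28.8, 29.6, 30.6, 30.0 and 32.2 CPM, again apart (log2 fold change -0.28 ± 0.041 SE, edgeR adjusted p = 4.85e-07). Exons of EDC3, which had more counts than CLK3, lie opposite 3.6% of the exon bases of CLK3. SRPK1, which phosphorylates SR proteins in the cytoplasm before their import, was at 100.8, 94.8, 102, 99.1 and 98.1 CPM and at 87.9, 85.4, 84.04, 88.4 and 87.5 CPM, and it fell without overlap (log2 fold change -0.19 ± 0.030 SE, edgeR adjusted p = 2.05e-06). CLK4, the nearest relative of CLK1, was at 13.0, 12.3, 15.6, 15.4 and 14.997 CPM and at 13.6, 14.9, 14.3, 13.1 and 13.6 CPM, with overlapping groups (log2 fold change -0.03 ± 0.066 SE). SRPK2 was at 121, 113, 123, 125 and 116 CPM and at 119.9, 120.1, 117, 123 and 119 CPM, and the groups overlapped as well (log2 fold change 0.0005 ± 0.031 SE). The last kinase, CLK2, was listed at 0 in every library and was not tested.

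Of 9 members of hnRNP A/B and D type, 5 fell and 4 did not pass (32.1% of all genes tested fell and 30.3% rose). With edgeR 0 rose, also at an unadjusted p under 0.05 or with DESeq2. HNRNPA1 (ENSG00000135486.17, chr12:54280193-54287088, plus strand), a repressor of many alternative exons, was at 878, 819, 909.6, 893 and 882 CPM in control and 581, 594, 618, 599.9 and 610.5 CPM in DDX41 knockdown libraries. The control and knockdown libraries were separated by more than 200 CPM. HNRNPA1 fell by 31.5% (log2 fold change -0.55 ± 0.028 SE; edgeR quasi-likelihood test, Benjamini-Hochberg adjusted p = 1.07e-16). Its 74 pseudogenes in the tables together held 0.645% as many counts as the gene, of which 571 were in control and 560 in knockdown libraries, and another counting could split reads between them and HNRNPA1. HNRNPA0, a single-exon gene that binds AU-rich elements, was at 228, 246, 220.4, 231 and 236 CPM and at 183, 183, 186, 183 and 184 CPM. All knockdown libraries of HNRNPA0 lay within 4 CPM of each other and below the control group (log2 fold change -0.34 ± 0.028 SE, edgeR adjusted p = 1.09e-11). HNRNPA3 fell without overlap (log2 fold change -0.27 ± 0.025 SE, edgeR adjusted p = 1.32e-10), and NFE2L2 lies opposite 53.6% of its exon bases with 39.0% as many counts. HNRNPDL was at 385, 381, 383, 389 and 381 CPM and at 331, 339, 341, 339.8 and 326 CPM, also apart (log2 fold change -0.19 ± 0.025 SE, edgeR adjusted p = 5.05e-08). HNRNPA1L3, an HNRNPA1-like gene at low level, went from 4.76 ± 0.465 CPM to 3.10 ± 0.45 CPM (SD, n = 5 per group; log2 fold change -0.62 ± 0.107 SE, edgeR adjusted p = 8.39e-06), and its near-identity to HNRNPA1 makes this value uncertain.

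The nearest abundant relative of HNRNPA1 did not pass. HNRNPA2B1 was at 1562, 1469, 1554, 1554 and 1525 CPM in control and 1552, 1509.6, 1573, 1616 and 1499 CPM in knockdown libraries. Its groups overlapped throughout (log2 fold change 0.02 ± 0.026 SE, edgeR adjusted p = 0.589). HNRNPD, which binds AU-rich elements and regulates mRNA decay, was at 448, 439.7, 447, 454 and 441 CPM and at 464, 440.5, 468, 462 and 452 CPM, with overlap (log2 fold change 0.04 ± 0.025 SE). HNRNPAB was at 231 ± 6.30 CPM to 234 ± 9.18 CPM (SD, n = 5 per group), and HNRNPA1L2, another retrocopy at low level, was at 2.65 ± 0.318 CPM to 2.77 ± 0.192 CPM (SD, n = 5 per group). Neither of them passed. Per kilobase of the canonical transcript, control cells held 422 CPM of HNRNPA2B1 and 234 CPM of HNRNPA1, and knockdown cells 427 and 160.5 CPM per kilobase.

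The members of hnRNP F/H type bind runs of guanine near splice sites, and of 4 tested, 2 rose, 1 fell and 1 did not pass. Of all genes tested, 30.3% rose and 32.1% fell. HNRNPF (ENSG00000169813.16, chr10:43385617-43409186, minus strand) was at 520.3, 504, 486, 489 and 496 CPM in control and 626, 587, 612, 625 and 599 CPM in DDX41 knockdown libraries. Every knockdown library lay above every control library (log2 fold change 0.29 ± 0.027 SE, edgeR adjusted p = 7.99e-11). HNRNPH3 (ENSG00000096746.17, chr10:68331174-68343193, plus strand) was at 295, 281, 307, 311 and 299.8 CPM and at 215, 215, 222, 225 and 213 CPM. Here every knockdown library lay below every control library, and HNRNPH3 fell by 26.9% (log2 fold change -0.45 ± 0.029 SE, edgeR adjusted p = 2.16e-14). HNRNPH2, on the X chromosome, was at 150.4, 136, 150.1, 146 and 142 CPM and at 159, 155, 158, 155 and 151 CPM. The gap was narrow, less than 1 CPM between control replicate 1 and knockdown replicate 5 (log2 fold change 0.10 ± 0.030 SE, edgeR adjusted p = 0.0039), and the call was lost without control replicate 2 (log2 fold change 0.08, edgeR adjusted p = 0.02) and without control replicate 5 (0.09, edgeR adjusted p = 0.0138), within a range of 0.00188 to 0.02 over its alternatives. Its paralogue HNRNPH1 was at 407, 390.1, 429.5, 398 and 419.7 CPM and at 388, 403, 411, 382 and 379.6 CPM, with overlapping groups (log2 fold change -0.06 ± 0.029 SE, edgeR adjusted p = 0.0789). HNRNPH1 and HNRNPH2 are similar in sequence, and a read-through gene on the same strand shares 15.8% of the exon bases of HNRNPH2, so that reads could be split differently by another counting.

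The opposite movement of HNRNPF and HNRNPH3 is shown with their promoters, 300 bases around the RefSeq start of each gene from RefSeq (GRCh38.p14), chr10:43408808-43409107 on the minus strand for HNRNPF and chr10:68331443-68331742 on the plus strand for HNRNPH3. Capitals mark matches on either strand to the motifs searched.
HNRNPF: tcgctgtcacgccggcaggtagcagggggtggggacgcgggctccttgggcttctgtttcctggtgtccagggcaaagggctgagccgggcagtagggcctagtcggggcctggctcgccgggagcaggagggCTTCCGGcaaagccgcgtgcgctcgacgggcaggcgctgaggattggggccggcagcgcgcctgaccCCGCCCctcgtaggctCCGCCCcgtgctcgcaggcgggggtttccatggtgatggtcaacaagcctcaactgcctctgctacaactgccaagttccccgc
HNRNPH3: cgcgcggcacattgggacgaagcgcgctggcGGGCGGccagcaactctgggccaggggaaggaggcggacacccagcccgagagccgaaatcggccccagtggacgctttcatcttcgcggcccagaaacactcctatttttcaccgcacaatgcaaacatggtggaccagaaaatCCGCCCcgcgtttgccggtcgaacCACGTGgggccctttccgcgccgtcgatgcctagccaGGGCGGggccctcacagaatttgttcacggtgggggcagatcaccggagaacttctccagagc
Both windows hold GGGCGG, read as CCGCCC on the other strand, HNRNPF also holds CCGGAAG, read there as CTTCCGG, and HNRNPH3 also holds CACGTG. Promoters were matched for 38 of the 42 tested members and for 27305 genes in all. GGGCGG, the GC box, was in 26 of the 38 promoters (68.4%), in 44.6% of all promoters and in 68.5% of those of tested genes. CACGTG, the E box, was in 8 (21.1%), in 7.43% of all promoters and in 9.77% of those of tested genes. CCGGAAG, an ETS site, and TATAAA, the TATA box, were each in 5 member promoters (13.2%), in 10.7% and 12% of all promoters and in 18.2% and 5.89% of those of tested genes. The palindromic NRF1 motif, AAGATGGCG (YY1) and TGACGTCA (CRE) were in 0 member promoters, in 1.36%, 1.85% and 1.98% of all promoters and in 2.25%, 3.75% and 3.17% of those of tested genes. No motif contains another of them, and a match describes the letters in the window only.

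Among the other hnRNPs and PTBP1, 8 members were tested, of which 5 fell and 2 rose, beside 32.1% and 30.3% of all genes tested. HNRNPU (ENSG00000153187.17, chr1:244840638-244864560, minus strand), a protein of the nuclear scaffold that binds RNA and chromatin, was at 774, 750.3, 788, 802 and 772 CPM in control and 985, 957, 978, 978 and 971 CPM in DDX41 knockdown libraries. The knockdown libraries all lay above the control libraries, and the rise was the largest among the tested members (log2 fold change 0.33 ± 0.025 SE, edgeR adjusted p = 8.49e-13). COX20 lies opposite 15.6% of the exon bases of HNRNPU and had 6.34% as many counts. HNRNPM, which binds GU-rich sites, was at 332, 317, 331, 325 and 325 CPM and at 355, 337, 362, 366 and 344 CPM, a small rise without overlap (log2 fold change 0.11 ± 0.027 SE, edgeR adjusted p = 0.000502). The HNRNPU-like genes fell. HNRNPUL1 (ENSG00000105323.16, chr19:41262496-41307787, plus strand) was at 467, 464, 474, 473 and 479 CPM and at 347, 375, 366, 375 and 374 CPM, with the groups far apart (log2 fold change -0.36 ± 0.026 SE, edgeR adjusted p = 4.72e-13). HNRNPUL2 was at 28.5, 27.6, 34.3, 31.0 and 33.3 CPM and at 24.3, 23.7, 24.4, 22.7 and 24.3 CPM, also without overlap but with a wider spread among control libraries (log2 fold change -0.37 ± 0.053 SE, edgeR adjusted p = 5.27e-07). A read-through gene shares 44.3% of the exon bases of HNRNPUL2 on the same strand, and TGFB1 lies opposite 3.2% of those of HNRNPUL1. HNRNPLL, which binds CA-rich RNA, went from 83.2 ± 0.788 CPM to 65.4 ± 2.79 CPM (SD, n = 5 per group; log2 fold change -0.35 ± 0.033 SE, edgeR adjusted p = 1.33e-10). HNRNPC, which binds uridine tracts, and HNRNPK, which binds cytosine-rich RNA through KH domains, fell slightly, with log2 fold changes of -0.11 ± 0.025 and -0.09 ± 0.023 (SE, edgeR adjusted p = 0.000254 and 0.000728). PTBP1, a repressor that binds pyrimidine tracts, was at 364 ± 16.2 CPM to 377 ± 5.13 CPM (SD, n = 5 per group) and did not pass (log2 fold change 0.05 ± 0.028 SE, edgeR adjusted p = 0.11).

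The 8 members that were not tested were CLK2, HNRNPR, HNRNPL, HNRNPCL1, HNRNPCL2, HNRNPCL3, HNRNPCL4 and HNRNPUL2-BSCL2. HNRNPR and CLK2 were listed at 0 in every library and HNRNPL had 7 counts over all libraries, although cultured human cells generally use these genes. The tables hold 6306 identifiers that are not in GENCODE 44, and whether reads of these genes were counted elsewhere was not tested. The HNRNPCL genes, copies of HNRNPC, were listed at 0, and the read-through gene HNRNPUL2-BSCL2 had 18 counts.

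Related members were then compared directly, as the difference in log2(CPM + 0.5) between the members of a pair. Of 18 pairs listed by family, 16 had both members tested, and 12 differed in their response with an adjusted p-value under 0.05 (two-sided exact permutation test over libraries with Benjamini-Hochberg adjustment over the 16 pairs). The pairs were chosen with earlier results of these data known, and the p-values do not account for that choice. In all 12, p = 0.00794 in this exact permutation test, the smallest that 5 libraries against 5 allow, with an adjusted p of 0.0106, and the ratios of control and knockdown libraries did not overlap. Since 62.4% of all genes tested were called, many pairs of unrelated genes may differ as well, and the share among such pairs was not determined. HNRNPF minus HNRNPH3 showed the largest shift, 0.74 ± 0.042 on the log2 scale (SE), from a mean log2 ratio of 0.74 in control to 1.48 in knockdown cells. HNRNPA1 minus HNRNPA2B1 shifted by -0.56 ± 0.028 (SE). Within the SR proteins, the shift was 0.35 ± 0.039 (SE) for SRSF2 minus SRSF8, 0.34 ± 0.026 (SE) for SRSF5 minus SRSF6 and 0.20 ± 0.043 (SE) for SRSF4 minus SRSF6. SRSF1 minus SRSF9 and SRSF3 minus SRSF7 shifted by -0.19 ± 0.023 and -0.19 ± 0.026 (SE). Among kinases, CLK1 fell against CLK4 (-0.30 ± 0.064 SE) and SRPK1 against SRPK2 (-0.19 ± 0.019 SE). The remaining shifts were -0.35 ± 0.050 (SE) for SRRM1 minus SRRM2, 0.23 ± 0.019 (SE) for HNRNPD minus HNRNPDL and -0.16 ± 0.030 (SE) for HNRNPH1 minus HNRNPH2. TRA2A minus TRA2B (-0.08 ± 0.037 SE), SRSF10 minus SRSF12 (0.24 ± 0.112 SE) and HNRNPA3 minus HNRNPA0 (0.07 ± 0.036 SE) did not pass, each with an adjusted p of 0.0762 in the exact permutation test. The value of SRSF10 minus SRSF12 depends on the pseudocount, since SRSF12 is so low, and was 0.4498 with 0.1 and 0.0501 with 2 in place of 0.5. HNRNPUL1 minus HNRNPUL2 was 0.0016 ± 0.064 (SE; exact permutation test, adjusted p = 0.976). CLK2 with CLK3 and HNRNPL with HNRNPLL could not be compared.

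**Figure D4:**
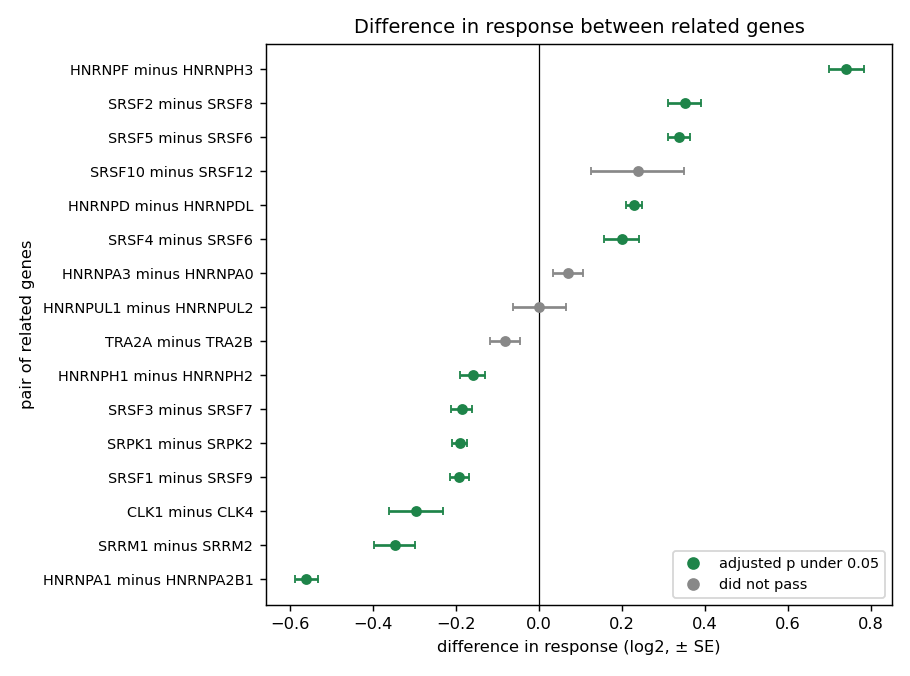
Difference in response to DDX41 knockdown between the members of 16 pairs of related genes, on the log2 scale, with bars for the standard error (n = 5 libraries per group), green where the adjusted p-value was under 0.05 and grey where it was not. The values run from -0.56 for HNRNPA1 minus HNRNPA2B1 to 0.74 for HNRNPF minus HNRNPH3.

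Annotation features that the choice of symbols did not use were counted as well. GENCODE 44 gives at least 1 NMD transcript for 34 of the 42 tested members (81.0%) and for 46.6% of the 13143 protein-coding genes tested, and at least 1 transcript with a retained intron for 33 members (78.6%) and for 59.1% of those genes. The other splicing regulators tested, 46 genes, were also high in both, with 69.6% and 76.1%. Of the 34 members with an NMD transcript, 18 fell (52.9%) and 3 rose (8.82%), and of the 8 without one, 4 fell (50%) and 2 rose (25%), so that the shares that fell were about equal. Among all protein-coding genes tested, 33.9% of those with an NMD transcript and 35.6% of those without one fell, and 33.2% and 33.0% rose. The median number of exons in the canonical transcript was 9 in the members, 12 in the other splicing regulators and 9 in the protein-coding genes tested. A single exon was found in 3 members. The median number of annotated transcripts was 13 in the members, 16.5 in the other splicing regulators and 8 in the protein-coding genes tested. The shares above were not corrected for these numbers. Exons of 19 tested members overlap those of another gene with counts, and in 8 of them the other gene had at least 10% as many counts. Besides those named above, these were KMT2E opposite 4.8% of the exon bases of SRPK2 with 121% as many counts, CBX3 opposite 2.9% of those of HNRNPA2B1 with 30.0%, and RUFY2 opposite 2.1% of those of HNRNPH3 with 11.5%, and all 3 members are in pairs compared above. Per kilobase of the canonical transcript, HNRNPA2B1 was the most abundant member in control cells, with 422 CPM, followed by HNRNPK with 372, HNRNPA1 with 234 and HNRNPF with 194 CPM. In knockdown cells HNRNPF held 237 CPM per kilobase, and HNRNPA1, with 160.5, stood below HNRNPH1 with 175 and near SRSF2 with 166 and HNRNPC with 166 CPM per kilobase.

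Splicing regulators not taken by the choice of symbols were counted for comparison, among them relatives of members such as PTBP2, PTBP3, SRPK3, SYNCRIP, RALY, PCBP1 and PCBP2. Of 46 tested genes on a list of 49, 22 fell (47.8%, beside 32.1% of all genes tested) and 8 rose (17.4%, beside 30.3%), and the median log2 fold change was -0.11, as in the members (-0.0014 over all genes tested). SRPK3, ESRP1 and ESRP2 were too low to be tested. The genes with the smallest adjusted p-values included the poly(C)-binding proteins PCBP2 and PCBP1 and the exon junction component RNPS1, with log2 fold changes of -0.89 ± 0.027, -0.59 ± 0.029 and -0.67 ± 0.032 (SE). PNN, DYRK1A and CELF1 rose, with 0.54 ± 0.029, 0.42 ± 0.040 and 0.24 ± 0.026 (SE). Of the NMD factors, SMG5 rose, with a log2 fold change of 0.33 ± 0.027 (SE), and SMG6 and SMG9 fell, with -0.40 ± 0.035 and -0.30 ± 0.036 (SE).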

How the data were processed

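RNA-sequencing counts of U2OS cells were analysed for 5 control knockdown and 5 DDX41 knockdown libraries, grouped by the sample labels. Whole-number read counts for each gene were deposited, which the authors made from stranded poly(A) libraries with bcl2fastq 2.19, STAR 2.7 on hg38 with GENCODE 25, and featureCounts 1.6, per the labels and the study's methods. The strand setting and the treatment of multi-mapping reads are not given in the sources used here, so genes with overlapping exons or near-identical copies are uncertain. Identifiers were joined without version to GENCODE 44, which matched 98.7% of the genes tested, and 45 copies of genes in the pseudoautosomal region of the Y chromosome were left out. Depth was 21807041 to 24896398 counts per library, and the biological coefficient of variation was 3.65%.

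Low genes were removed with filterByExpr of edgeR 4.0.16 (R 4.3.3), libraries were scaled with TMM, and the groups were compared with the robust quasi-likelihood fit, with Benjamini-Hochberg adjustment over all 16143 genes and a threshold of 0.01. Pairs of genes were compared as differences of log2(CPM + 0.5) in exact, two-sided permutation tests. CPM per kilobase used the length of the canonical transcript. Alternatives were DESeq2 1.42.0, other scaling, no filter on low counts, other thresholds and pseudocounts, the replicate number as a block, and each library left out in turn. The fits were tested on simulated data with 200 genes changed 1.5-fold. Far more genes were called in the real data and most members changed by less, so the simulation does not check the calls of small changes. Full statistics were given for up to 2 members per class and direction with the largest log2 fold change among called genes with at least 5 CPM, for members of pairs that differed, and for up to 3 genes per direction of the other lists. The count of NMD factors that fell and the values of 1 of these genes are not reported here. Members, classes, lists and pairs were chosen with earlier results of these data known.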

Additional observations from a re-analysis of the deposited data

Results flagged for a closer look

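Values of the 42 tested members and DDX41 were compared within each group of 5 libraries, 86 groups in all, and 2 groups (2.33%) held a library far from the others. Chance gives this in about 1 group in 20. In SRSF10, knockdown replicate 5 was low at 208 CPM, with the next library at 219 CPM, a gap of 0.741 of the range. Without it, the log2 fold change of SRSF10 was -0.06 (edgeR adjusted p = 0.0805), and with it -0.08 (edgeR adjusted p = 0.0187), which did not pass the threshold of 0.01 either. In SRSF5, knockdown replicate 2 was high at 238 CPM, with the next library at 219.6 CPM, a gap of 0.758 of the range. Without it, SRSF5 fell by 0.15 on the log2 scale (edgeR adjusted p = 4.51e-05), and with it by 0.12 (edgeR adjusted p = 0.00069).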

How the results depend on the processing

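The count of members was stable to scaling, test and filter and moved with a threshold on size. With an absolute log2 fold change over 0.5 in addition, 2 members fell and 0 rose, since the changes of the members were small. Of the 46 other splicing regulators tested, 10 fell and 1 rose with this threshold, in place of 22 and 8. Of all genes tested, 15.7% fell and 9.81% rose with it. The lowest log2 fold change among those regulators was -1.34. Downregulated members numbered 21 with DESeq2's size factors or Wald test, 23 with library totals (all 22 among them), 22 without the filter (21 shared) and 25 at an adjusted p-value under 0.05, and upregulated members 5 in each. Of all 16143 genes tested, 5178 fell and 4890 rose in the main fit. With DESeq2's size factors 5091 fell and 4973 rose, and with library totals 5316 and 4706. Of 32705 genes, 4939 fell and 4801 rose with the Wald test, and 5478 and 5124 without the filter. Leaving out each library in turn gave 21 to 22 downregulated and 4 to 5 upregulated members. The numbers of the replicates do not pair the libraries: deviations of same-numbered libraries correlated between -0.0524 and 0.0446, and 1 of 5 correlated best with its own number. The replicate block gave 22 and 5 members, the same genes as without it. Of 10 NMD factors tested, 1 rose in the main fit (10%, beside 30.3% of all genes tested). With DESeq2 2 rose, and with each library left out 1 to 2 rose (2 without control replicate 3). The cause was not tested. The number of NMD factors that fell was the same as in the main fit with each scaling, DESeq2, no filter, the replicate block and each library left out. Signs turned only where no call was made, at values near 0. HNRNPUL1 minus HNRNPUL2 was -0.0156 with a pseudocount of 2 and lay between -0.034 and 0.0348 with each library left out, below 0 without control replicate 3 or 5 or knockdown replicate 2 or 4. The log2 fold change of SRPK2 was -0.011 with library totals. With each library left out it ranged from -0.019 to 0.0163 for SRPK2, from -0.0821 to 3e-04 for CLK4 (above 0 without control replicate 3), from -0.0267 to 0.0015 for SRSF1 (above 0 without knockdown replicate 5) and from -0.001 to 0.03 for SRSF7 (below 0 without control replicate 5). TRA2A minus TRA2B (exact permutation test, adjusted p = 0.00977 without knockdown replicate 2), SRSF10 minus SRSF12 (0.0293 without control replicate 4) and HNRNPA3 minus HNRNPA0 (0.0106 without control replicate 3) passed with 1 library left out, and 12 to 13 pairs passed in these tests. Scaling moved the median log2 fold change of all genes by 0.0067 with DESeq2's size factors and by -0.0115 with library totals. The share of arginine and serine dipeptides in the proteins was planned and not run. Depth limits SRSF12, HNRNPA1L2 and HNRNPA1L3, and gene counts do not resolve isoforms, poison exons or protein.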
